A study of Mus musculus with 3 samples.

Results

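The 39 mouse Hox genes were followed across 3 expression arrays. A probe was included when its mapped gene symbol was Hox followed by a cluster letter, a to d, and a number. The rule found 43 probes for 39 of the 20577 named genes on the array, which are all 39 Hox genes of the RefSeq gene table used for names. Of these genes 4, among them Hoxa9, Hoxa13 and Hoxb3, had 2 probes each, and the other 35 had 1. HoxA held 11 of the genes, HoxB 10, HoxC 9 and HoxD 9.

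The study asked how far spleen fibroblasts can be turned towards a hepatocyte state. MF were primary spleen fibroblasts, taken from mice whose spleens had been remodelled by SiO2, and they carried the control lentivirus LV-NC. The hepatocyte-like cells, iHep, came from such fibroblasts after transduction with LV-3TF, a lentivirus whose 3 factors the labels do not name. MF and iHep were both collected 14 days after transduction, so a transduced culture and SiO2-remodelled spleen origin are shared by both. PH were primary hepatocytes isolated fresh and used as a positive control, with no virus or culture named for them. The labels give all cells as female, and RNA of 5 samples was pooled for each array.

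Hox genes encode homeodomain transcription factors that lie side by side in 4 clusters. Their order along the chromosome mirrors the order in which they are used from head to tail, and genes with the same number in different clusters are paralogs. Adult fibroblasts are known to keep a Hox pattern that reflects the body site they came from, whereas hepatocytes arise from the foregut endoderm. Hox proteins bind DNA together with cofactors of the TALE homeodomain class, Polycomb complexes keep unused stretches of the clusters silent, and trithorax complexes counter them.

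Each group had 1 array, which leaves every difference without a replicate check and allows no test and no p-value. "Higher" and "lower" refer to these arrays alone. A level is log2 of a probe's signal over the 75th percentile of its array, so that 0 is that percentile. That percentile was a signal of 544.3 for MF, 3752 for iHep and 2081 for PH. From probes spotted repeatedly, the technical SD of a difference was 0.14 to 0.15 on the log2 scale, while different probes of a gene disagreed with an SD of 0.85 to 1.11. Where just 1 of both arrays had a gene well above background, a bound is given, written as "at least". MF was scanned apart from iHep and PH, so scan and group cannot be told apart in comparisons with MF.

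Most Hox genes gave signal in the fibroblasts, and fewer did in the hepatocytes. On the MF array 32 of the 39 were well above background, against a background of 72.9% of all named genes. On the iHep array 30 were, where the share over all genes was 79.5%, and on PH 23 were, where it was 84.5%. The Hox share thus lay above that of all genes in MF and below it in PH. Of the 39 genes, 19 were above background on all 3 arrays, 10 on MF and iHep but not PH, 3 on MF alone, and 3 (Hoxd1, Hoxd10 and Hoxd12) on none. The median Hox level was -2.58 in MF, -3.34 in iHep and -5.58 in PH. In such pools, fewer cells of a type and less RNA per cell cannot be told apart.

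The clusters differed in where they were read. HoxC was read in full in MF, with 9 of 9 genes above background, then 7 in iHep and 4 in PH. HoxD was read least, with 4 of 9 genes in MF, 5 in iHep and 2 in PH, and none of its genes was above background on all 3 arrays. HoxA gave 10, 9 and 9 of 11 genes on MF, iHep and PH, and HoxB gave 9, 9 and 8 of 10. The shares over all genes were 72.9%, 79.5% and 84.5% on these arrays. HoxA in iHep and PH, HoxB in PH and HoxC in iHep lay near them. By place in the cluster, all 15 genes of paralog groups 4 to 8 passed background in both MF and iHep, and 10 did in PH. Of the 16 genes of groups 9 to 13, 11 were in MF, 9 in iHep and 7 in PH. For the 8 genes of groups 1 to 3 the number was 6 on each array.

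**Figure D1:**
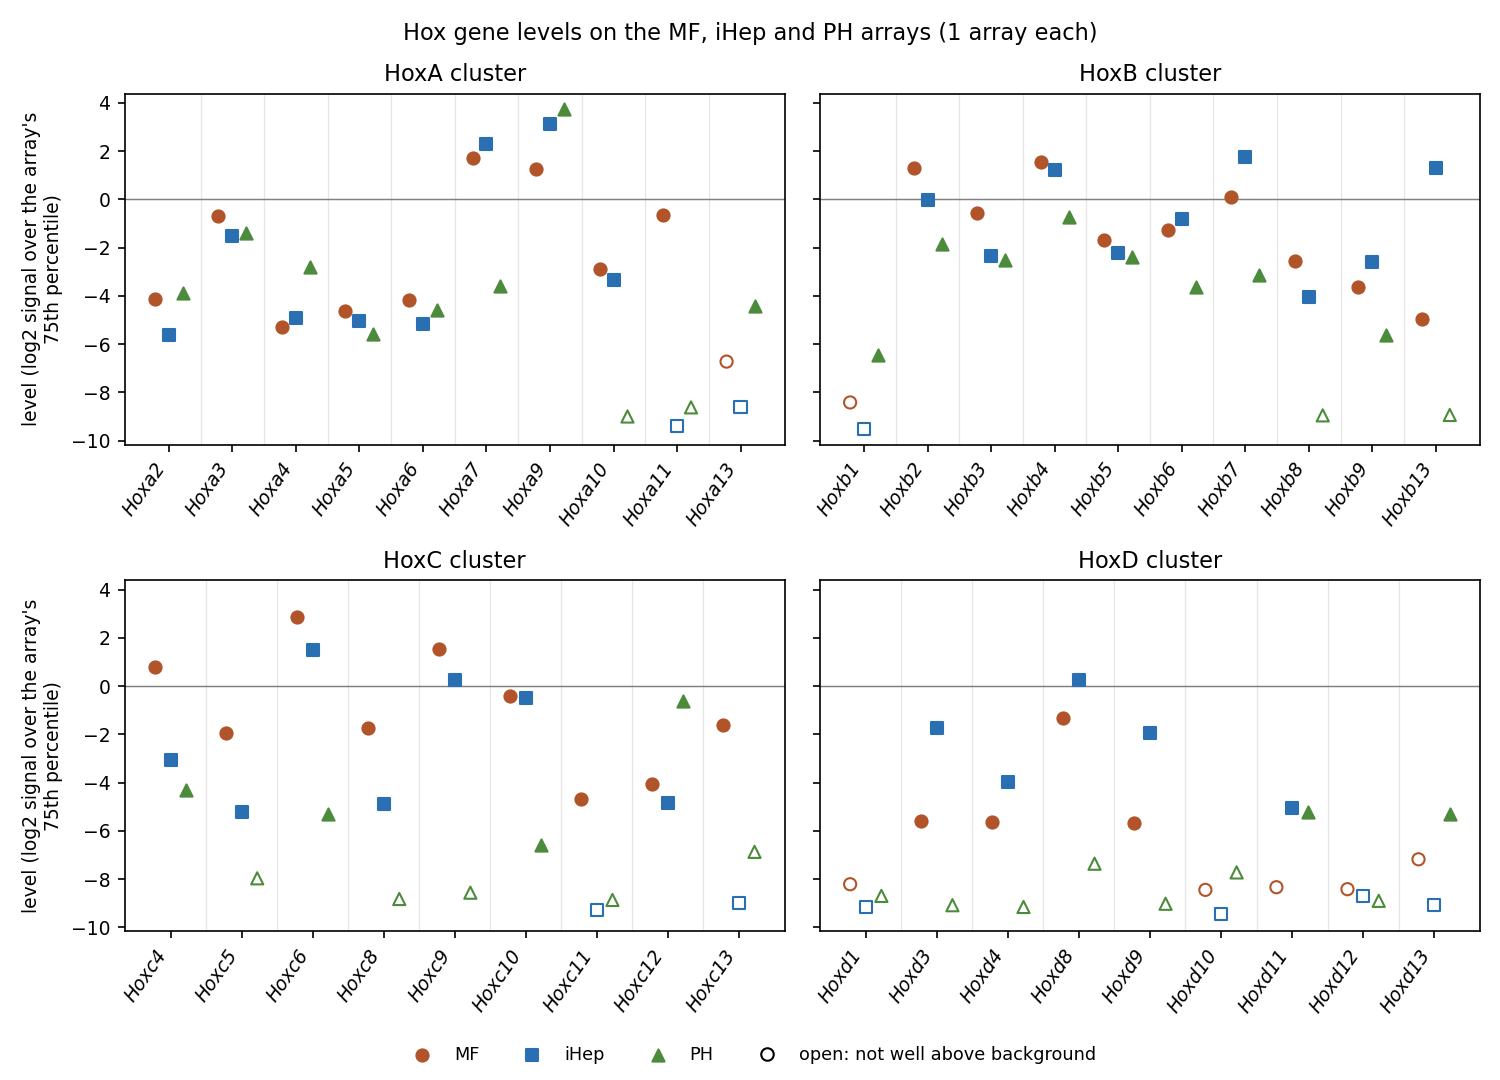
Level (log2 signal over the array's 75th percentile) of the Hox genes on the MF (circle), iHep (square) and PH (triangle) arrays, by cluster and paralog number, with 1 array per group and no error bar. Open symbols are readings not well above background. MF circles lie highest across most of HoxC, iHep squares lie highest for Hoxd3, Hoxd4 (not with the normexp background correction), Hoxd8 and Hoxd9, and Hoxb13 stands at 1.31 in iHep against -4.97 in MF.

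Each array had Hox genes at least 2-fold higher than on both others. MF had 11 of them (Hoxa11, Hoxb2, Hoxb3, Hoxb8, Hoxc4, Hoxc5, Hoxc6, Hoxc8, Hoxc9, Hoxc11 and Hoxc13), where 11.4% of genes over the whole array were highest in MF in this way. iHep had 7 (Hoxb7, Hoxb9, Hoxb13, Hoxd3, Hoxd4, Hoxd8 and Hoxd9), against 9.43% over the array. PH had 4 (Hoxa4, Hoxa13, Hoxc12 and Hoxd13), against 23.4%. With the normexp background correction Hoxa4, Hoxa13 and Hoxd13 were no longer 2-fold higher in PH than in MF. Hoxb9 and Hoxd4 were then no longer 2-fold higher in iHep than in MF. Hoxb3 lost its 2-fold call between iHep and MF in the authors' value table. HoxC held 7 of the 11 MF genes, and HoxD held 4 of the 7 iHep genes.

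In iHep over MF the clusters moved apart: HoxC genes were lower, HoxD genes were higher (3 of 5 with normexp, an alternative background correction), and HoxA and HoxB were mixed. Of 33 genes that could be compared, 9 were at least 2-fold higher in iHep, where 19.9% of all genes tested were. In the same comparison 12 were lower by at least 2-fold, where 23.6% of all genes were. Another 12 lay within 2-fold, and 6 were above background on neither array. The median difference was -0.77 over the 39 genes as read and -0.11 over all genes. Among the 29 Hox genes measured on both arrays the median size of the difference was 1.34, against 0.84 over all genes measured on both.

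HoxC carried most of the lower genes, with 7 of 9 lower in iHep, 2 within 2-fold, none higher and a median difference of -3.12. Hoxc4, the member of its cluster used nearest the head, read 0.79 in MF, -3.05 in iHep and -4.30 in PH, and was 14.3-fold lower in iHep than in MF. Its neighbour Hoxc5 read -1.95, -5.22 and -7.96 (not above background in PH), 9.66-fold lower in iHep. Hoxc8, active in the trunk of the embryo, read -1.74, -4.86 and -8.82 (not above background in PH), 8.72-fold lower in iHep. These 3 genes fell in order from MF through iHep to the PH reading.

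Hoxc6 and Hoxc9 were lower by less and stayed above the 75th percentile in iHep. Hoxc6 read 2.88 in MF, 1.51 in iHep and -5.30 in PH, 2.58-fold lower in iHep. Hoxc9 read 1.52, 0.26 and -8.56 (not above background in PH), 2.40-fold lower. Hoxc10, a posterior gene of hindlimb and lumbar level, was 1.08-fold apart, with levels of -0.38 in MF, -0.50 in iHep and -6.58 in PH.

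At the end of HoxC that is used nearest the tail, signal fell to background. Hoxc13, known for its part in hair and nail, read -1.61 in MF and was not above background in iHep (-8.97) or PH (-6.87), at least 52.5-fold lower in iHep. Hoxc11 read -4.66 in MF and was not above background in iHep (-9.29) or PH (-8.86), at least 6.34-fold lower in iHep. Hoxc12 lies between them on the chromosome and did not follow them, with -4.06 in MF, -4.83 in iHep and -0.63 in PH. Each of the 7 lower calls of HoxC was kept at 2-fold in every alternative processing that read the gene. Fewer of these genes were read in the authors' value table, which covers 25 of the 39 Hox genes, and 3 were lower there. When only probes above background on all 3 arrays were kept, fewer were read as well, and 2 were lower.

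HoxD moved the other way: all 5 of its genes that could be compared were higher in iHep, but with the normexp background correction 3 were, and the median of its 9 genes turned from 1.57 to -1.16 where that of all genes was -1.04. Hoxd3, an anterior gene, read -5.59 in MF, -1.73 in iHep and -9.08 (not above background) in PH, 14.6-fold higher in iHep than in MF. Hoxd9, a posterior gene also used in limb patterning, read -5.68, -1.93 and -9.02 (not above background in PH), 13.5-fold higher in iHep. Hoxd8, which lies between those 2, read -1.33, 0.24 and -7.36 (not above background in PH), 2.96-fold higher in iHep. These 3 genes were the ones still higher with normexp, where Hoxd3 differed by 1.49, Hoxd8 by 1.37 and Hoxd9 by 1.33.

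In MF, Hoxd3 and Hoxd9 lay near the array's lowest measurable level of -6.30, and so did Hoxd4. Hoxd4 read -5.62 in MF, -3.96 in iHep and -9.15 (not above background) in PH, 3.16-fold higher in iHep, and its difference became -0.50 with normexp. Hoxd11 was not above background in MF (-8.33) and read -5.06 in iHep and -5.20 in PH, at least 2.38-fold higher in iHep, and this became -1.16 with normexp. Hoxd13, a gene of digits and hindgut end, was above background on the PH array alone, at -5.28, with readings of -7.18 in MF and -9.08 in iHep. Hoxd1, Hoxd10 and Hoxd12 read between -9.45 and -7.72 on the 3 arrays, none of these above background, so the higher genes form a stretch from Hoxd3 and Hoxd4 to Hoxd9 with Hoxd11 apart from it.

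Sequence just before the gene start is shown for genes from the falling and the rising groups, so that the same stretch of DNA can be set side by side. Each is the 250 bases before the start in RefSeq's GRCm38.p6, read 5′ to 3′ on the gene's strand, with every CG dinucleotide in capitals. Hoxa11 lies at chr6:52245811-52246060 on the minus strand, Hoxc4 at chr15:103034145-103034394, Hoxd3 at chr2:74711743-74711992 and Hoxd9 at chr2:74697513-74697762, the last 3 on the plus strand. Hoxa11 and Hoxc4 were lower in iHep, and Hoxd3 and Hoxd9 were higher.
Hoxa11: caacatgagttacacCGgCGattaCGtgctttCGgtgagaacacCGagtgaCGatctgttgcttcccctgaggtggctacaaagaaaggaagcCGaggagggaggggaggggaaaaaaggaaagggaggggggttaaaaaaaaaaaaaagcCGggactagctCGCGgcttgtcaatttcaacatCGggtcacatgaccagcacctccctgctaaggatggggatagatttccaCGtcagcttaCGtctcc
Hoxc4: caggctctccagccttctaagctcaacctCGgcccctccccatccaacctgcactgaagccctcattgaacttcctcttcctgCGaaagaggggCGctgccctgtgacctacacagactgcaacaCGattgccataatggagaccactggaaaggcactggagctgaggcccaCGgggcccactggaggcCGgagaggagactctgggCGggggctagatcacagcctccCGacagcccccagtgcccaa
Hoxd3: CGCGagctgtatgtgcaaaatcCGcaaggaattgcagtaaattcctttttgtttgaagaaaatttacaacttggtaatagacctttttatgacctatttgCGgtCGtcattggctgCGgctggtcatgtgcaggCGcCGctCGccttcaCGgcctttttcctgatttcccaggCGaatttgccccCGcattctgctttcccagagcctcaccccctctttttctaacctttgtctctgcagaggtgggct
Hoxd9: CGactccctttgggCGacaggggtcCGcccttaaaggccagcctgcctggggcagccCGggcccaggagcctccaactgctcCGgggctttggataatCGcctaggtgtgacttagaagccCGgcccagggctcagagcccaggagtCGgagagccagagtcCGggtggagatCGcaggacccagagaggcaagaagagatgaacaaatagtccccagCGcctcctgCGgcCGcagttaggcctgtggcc

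The 4 sequences carried 13 CG dinucleotides at Hoxa11, 8 at Hoxc4, 12 at Hoxd3 and 13 at Hoxd9, so the falling and rising genes shown did not separate by this count. The sequence table held 24 starts of 22 Hox genes. The median CG count was 12.5 over these 24 and 6 over all 32851 promoters of the table, whose 75th percentile was 16. Starts of genes higher in iHep than in MF had a median of 6 (7 starts, 2 to 20), those of lower genes 10 (4 starts, 6 to 13) and those of genes within 2-fold 18 (7 starts, 7 to 28). Among the higher genes, Hoxd11 entered with separate starts of 2 and 20 and Hoxd4 with a start of 3. Hoxd4 and Hoxd11 turned to negative differences with the normexp background correction. For HoxC the starts held Hoxc4 alone, so the other lower HoxC genes do not enter these medians. The median share of G and C was 58.6% for Hox starts and 52.4% over the table.

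Short motifs were searched on both strands in the 250 bases before each start. TATAAA, the core of a TATA box, was in 4 of 24 Hox starts (16.7%) and in 12.4% of all promoters. TAATTA, a homeodomain core, was in 2 (8.33%) against 4.84%, both of them starts of Hoxd11 (this motif reads the same on both strands). TGATNNAT, the core bound jointly by Hox proteins and their Pbx cofactor, was in 4 (16.7%) against 7.68%. These matches describe letters in a window and no more.

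HoxB was split between genes that were higher and genes that were lower in iHep than in MF, 3 each, with 3 within 2-fold and Hoxb1 above background on neither array. Hoxb13, the posterior end gene known from prostate and hindgut, read -4.97 in MF, 1.31 in iHep and -8.94 (not above background) in PH. It was 77.6-fold higher in iHep than in MF, the largest rise of any Hox gene measured on both arrays, and its log2 difference stayed between 4.21 and 6.29 over the alternatives that read it. Hoxb7 read 0.11, 1.74 and -3.13 on MF, iHep and PH, 3.10-fold higher in iHep. Hoxb9 read -3.65, -2.61 and -5.64, 2.05-fold higher in iHep, and fell within 2-fold with normexp at 0.11.

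The lower HoxB genes were Hoxb2, Hoxb3 and Hoxb8. Hoxb2, a hindbrain segment gene, read 1.32 in MF, -0.02 in iHep and -1.86 in PH, 2.53-fold lower in iHep. Hoxb8, also known from blood progenitors, read -2.58, -4.07 and -8.96 (not above background in PH), 2.81-fold lower. Hoxb3 was 3.49-fold lower by the probe used, with levels of -0.55, -2.35 and -2.52. Its second probe read -0.47, -1.40 and -4.35, a difference of -0.93 between iHep and MF, which is short of 2-fold.

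Hoxb4, Hoxb5 and Hoxb6 lay within 2-fold between iHep and MF. Hoxb4, a regulator of blood stem cell growth, read 1.57 in MF, 1.23 in iHep and -0.73 in PH. Hoxb5 read -1.68, -2.20 and -2.38, close together on all 3 arrays. Hoxb6 read -1.28, -0.82 and -3.64.

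In HoxA, 7 of 10 comparable genes lay within 2-fold in iHep over MF, 1 was higher and 2 were lower. With normexp 5 were lower, since Hoxa4, Hoxa5 and Hoxa6 then differed by -1.18, -1.60 and -1.65. Hoxa7 read 1.70 in MF, 2.27 in iHep and -3.59 in PH. Hoxa10, a gene of uterus and limb, read -2.90, -3.34 and -9.003 (not above background in PH). Hoxa3, Hoxa4, Hoxa5 and Hoxa6 also lay within 2-fold, with iHep levels of -1.52, -4.92, -5.03 and -5.16 against -0.70, -5.27, -4.61 and -4.17 in MF.

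The exceptions in HoxA were Hoxa9, Hoxa2 and Hoxa11. Hoxa9, a posterior gene also used by blood progenitors, read 1.24 in MF, 3.11 in iHep and 3.73 in PH, 3.67-fold higher in iHep. Hoxa2, a gene of the hindbrain and pharyngeal arches, read -4.15, -5.64 and -3.88, 2.82-fold lower in iHep. Hoxa11, which patterns the forearm, kidney and uterus, read -0.66 in MF and was not above background in iHep (-9.40) or PH (-8.62), at least 102-fold lower in iHep. Its probe is printed 10 times, with 10, 10 and 9 spots kept and spot SDs of 0.14, 0.30 and 0.44 on MF, iHep and PH. The loss of Hoxa11 signal was therefore far larger than the spread between spots, although spots of an array are no biological replicates.

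**Figure D2:**
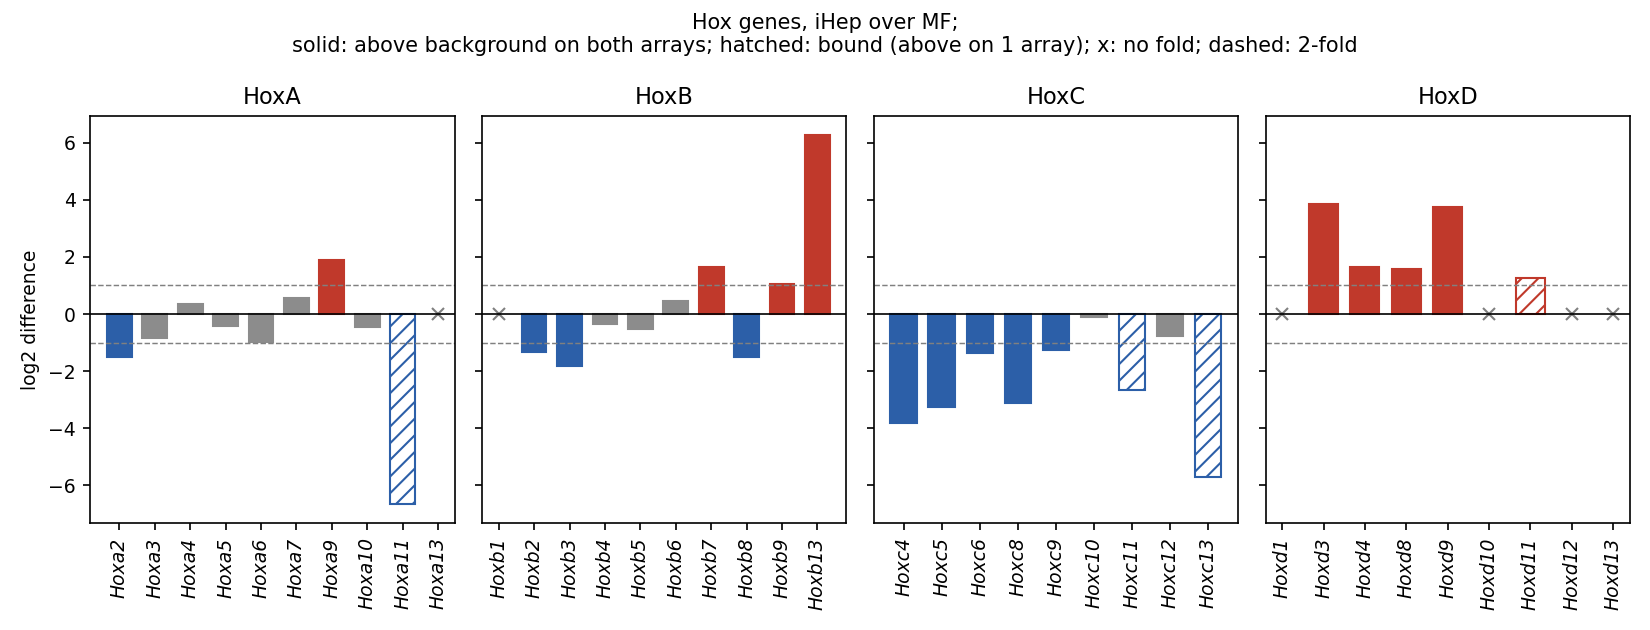
Log2 difference of iHep over MF for the Hox genes by cluster, with 1 array per group and no error bar; solid bars were above background on both arrays, hatched bars are bounds, crosses mark genes with no fold and dashed lines mark 2-fold. HoxC bars point down, HoxD bars point up (Hoxd4 and Hoxd11 turn down with normexp), and Hoxb13 (6.28) and Hoxa11 (bound of -6.67) are the extremes.

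By place in the cluster, where 19.9% of all genes were higher and 23.6% lower, the counts were mixed. Of the genes of paralog groups 1 to 3, 1 was higher and 3 were lower in iHep than in MF among 6 compared. In groups 4 to 8, 3 were higher and 5 lower among 15, and 8 were lower with normexp. In groups 9 to 13, 5 were higher and 4 lower among 12, and 3 were higher with normexp. Paralogs of the same number often went apart: in group 9, Hoxa9, Hoxb9 and Hoxd9 were higher and Hoxc9 was lower, and in group 13, Hoxb13 was higher and Hoxc13 lower. In group 11, Hoxa11 and Hoxc11 were lower and Hoxd11 was higher. With normexp Hoxb9 fell within 2-fold (0.11), and Hoxd11 turned to -1.16, the direction of Hoxa11 and Hoxc11.

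PH had less Hox signal than MF for most genes. Signal above background in MF, in PH or in both was read for 36 genes, of which 6 were at least 2-fold higher in PH, where 30.9% of all genes tested were. At least 2-fold lower in PH were 24, against 25.4% of all genes, while 5 lay within 2-fold and Hoxb1 had no fold. The 24 lower genes kept the 2-fold call in every alternative processing that read them. The median Hox difference was -2.36, and -0.03 over all genes. This comparison shares the MF array with that of iHep over MF, so the values stand side by side and are not set against each other.

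HoxC was the most depleted in PH, with 8 of 9 genes lower than in MF. Hoxc6 was 290-fold lower, Hoxc10 was 73.5-fold lower and Hoxc4 was 33.9-fold lower, all with signal on both arrays. Hoxc9 was at least 341-fold lower, Hoxc13 at least 38.2-fold, Hoxc8 at least 35.5-fold, Hoxc5 at least 30.8-fold and Hoxc11 at least 4.70-fold. The remaining gene, Hoxc12, was 10.7-fold higher in PH.

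In HoxB, 8 of 10 genes were lower in PH than in MF and none was higher. By the probes used, the differences ran from 3.92-fold lower for Hoxb3 and 3.98-fold for Hoxb9 to 9.48-fold for Hoxb7 and at least 19.9-fold for Hoxb8. Hoxb3 was lower by more with its second probe, a log2 difference of -3.88 against -1.97 with the probe used. Hoxb2 was 9.03-fold lower, Hoxb6 5.15-fold and Hoxb4 4.90-fold, and Hoxb13 was at least 3.79-fold lower. Hoxb5 lay within 2-fold. Hoxb1 was above background in PH alone, at -6.44 with readings of -8.42 in MF and -9.51 in iHep, and this is too close to the lowest measurable level of MF for a fold.

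HoxA and HoxD were mixed in PH over MF. In HoxA, Hoxa7 was 39.1-fold lower, Hoxa11 at least 75.3-fold lower and Hoxa10 at least 15.9-fold lower. Hoxa9 was 5.60-fold higher in PH, Hoxa4 was 5.59-fold higher and Hoxa13, at -4.41 in PH and not above background in MF (-6.73), at least 3.71-fold higher. In HoxD, Hoxd8 was at least 47.4-fold lower in PH, Hoxd3 at least 2.46-fold, Hoxd4 at least 2.42-fold and Hoxd9 at least 2.31-fold. Hoxd11 was at least 2.16-fold higher and Hoxd13 at least 2.03-fold higher in PH.

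The 6 higher genes were less steady than the lower ones. Hoxa9 and Hoxc12 kept their 2-fold call in every alternative that read them. Hoxa4 fell within 2-fold with normexp (0.59), and Hoxa13, Hoxd11 and Hoxd13 lost the call with normexp, quantile normalization and the authors' value table, with their differences turning to -0.38, -0.99 and -1.02 with normexp. That correction moved the median of all genes by -0.72 in this comparison.

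**Figure D3:**
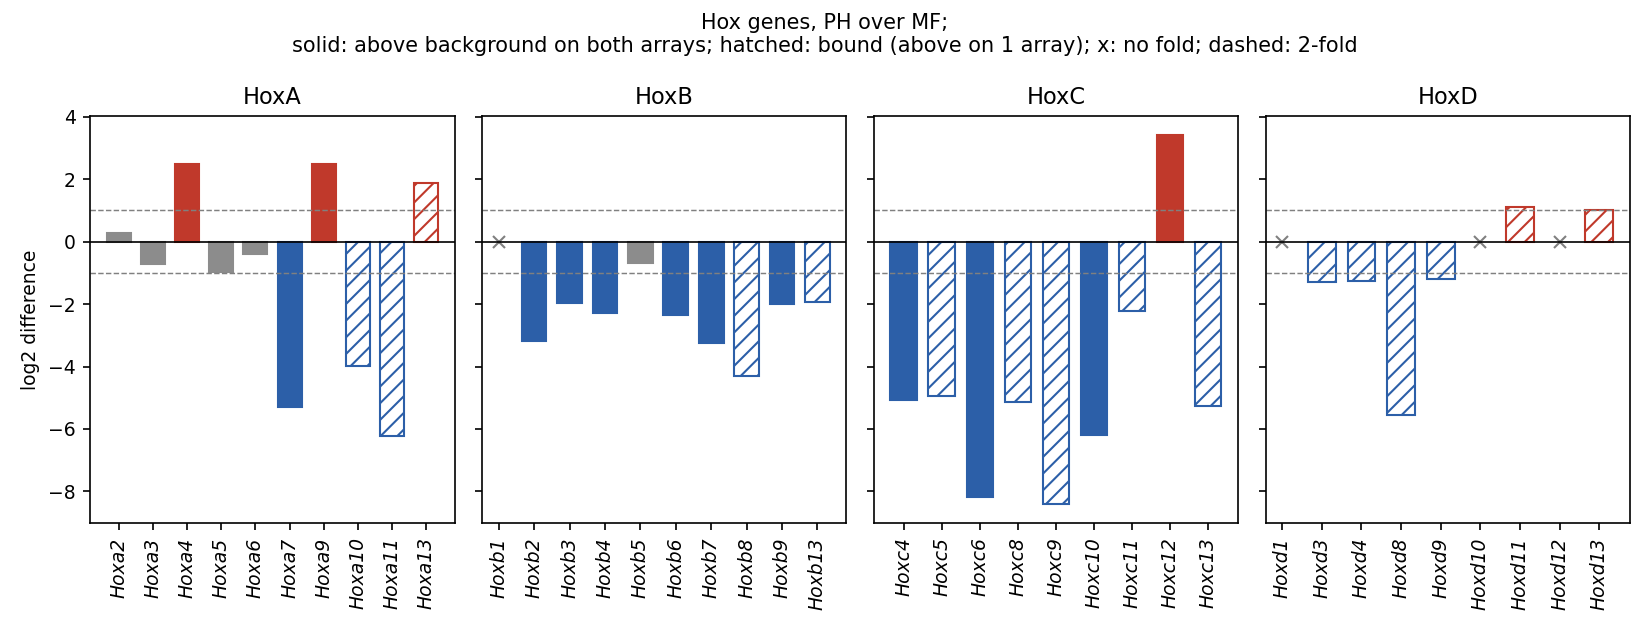
Log2 difference of PH over MF for the Hox genes by cluster, drawn as in the plot of iHep over MF and with 1 array per group. Most bars beyond 2-fold point down, furthest for Hoxc9 (bound of -8.42) and Hoxc6 (-8.18), and up for Hoxa4, Hoxa9, Hoxa13, Hoxc12, Hoxd11 and Hoxd13, of which Hoxa13, Hoxd11 and Hoxd13 turn with normexp.

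iHep had more Hox signal than PH. Of 33 genes compared between these arrays, which shared a scan, 20 were higher in iHep than in PH by at least 2-fold, against 23.2% of all genes. At least 2-fold lower in iHep were 5, against 36% of all genes. The median Hox difference was 1.25 as read, and -0.41 over all genes. All 7 HoxB genes beyond 2-fold were higher in iHep, as were 6 of 7 in HoxC and 4 of 5 in HoxD, while HoxA had 3 higher and 3 lower, with 4 within 2-fold.

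Large bounds above PH were those of Hoxb13, at least 294-fold higher in iHep, Hoxc9, at least 142-fold, and Hoxd8, at least 140-fold; bounds have no order. Hoxc6 was 113-fold higher, Hoxc10 67.8-fold, Hoxa7 58.1-fold and Hoxb7 29.4-fold, all measured on both arrays. Hoxd3 and Hoxd9 were at least 35.9-fold and at least 31.2-fold higher. The lower genes were Hoxc12 (18.4-fold), Hoxa4 (4.36-fold), Hoxa2 (3.39-fold), Hoxa13 (at least 7.52-fold) and Hoxd13 (at least 4.12-fold). Hoxa3, Hoxa5, Hoxa6, Hoxa9, Hoxb3, Hoxb5 and Hoxd11 lay within 2-fold between iHep and PH by the probes used, and Hoxb1 was at least 1.84-fold lower in iHep. By their second probes, Hoxb3 differed by 2.96 and Hoxa9 by -1.18 in iHep over PH, both beyond 2-fold.

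Hoxa9 lay above the 75th percentile on every array by the probe used, PH included, and its second probe kept the direction at a lower size. That probe read -3.60 in MF, -2.90 in iHep and -1.73 in PH, a difference of 0.69 for iHep over MF and 1.87 for PH over MF. The second probe of Hoxa13 was above background on no array, with readings of -8.53, -9.59 and -9.20, so the values of that gene rest on 1 probe. When the probes were averaged, Hoxa13 lost its 2-fold call in PH over MF and in iHep over PH.

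**Figure D4:**
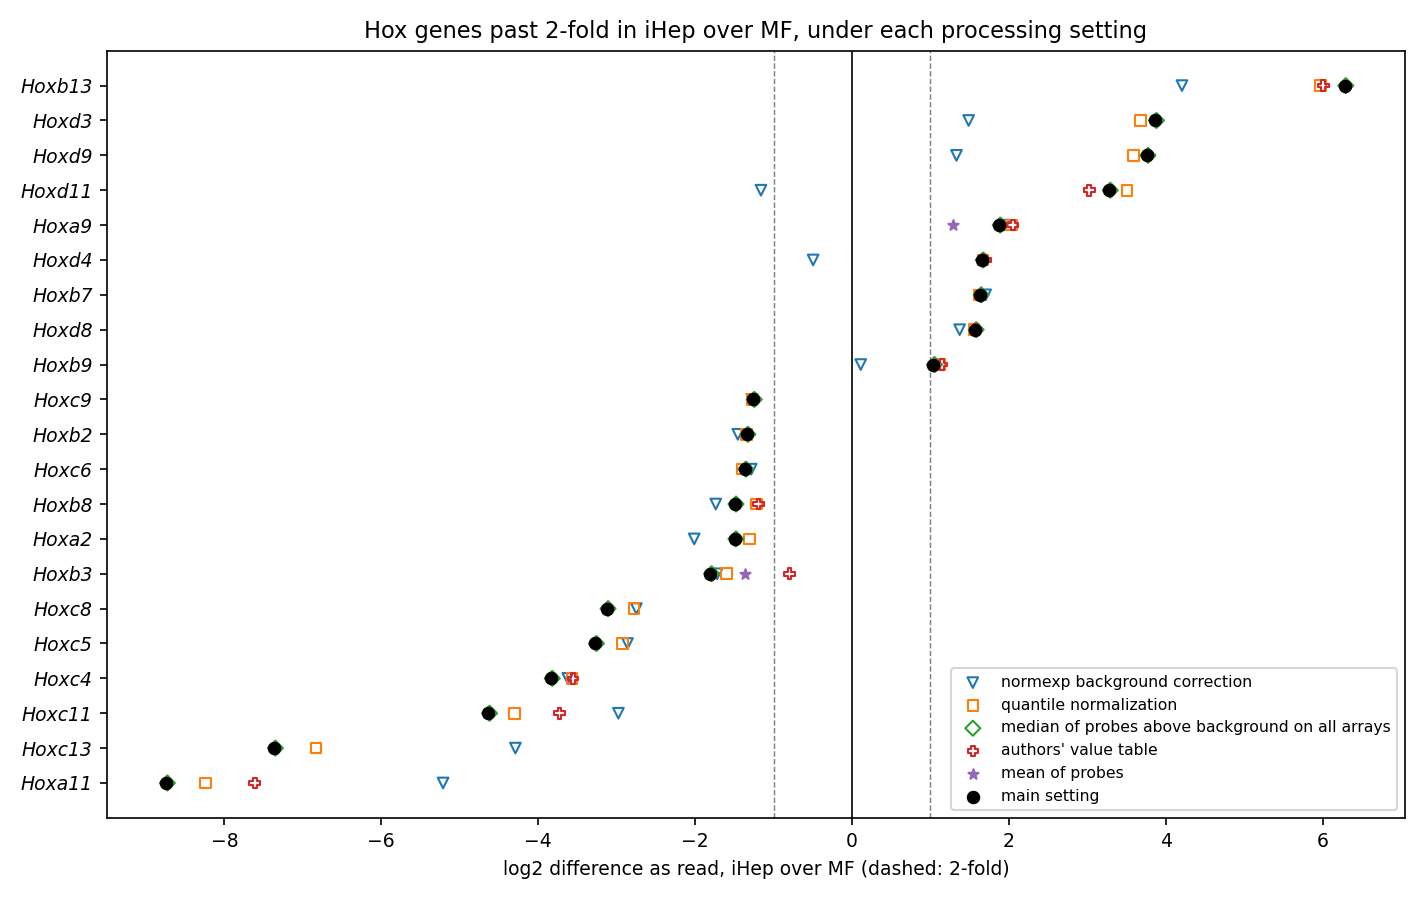
Log2 difference of iHep over MF for the Hox genes beyond 2-fold (9 higher, 12 lower), as read, in the main processing (filled circles) and in 5 alternatives that change the values themselves, with 1 array per group; dashed lines mark 2-fold. The normexp triangles lie furthest from the circles, across 0 for Hoxd4 (1.66 against -0.50) and Hoxd11 (3.28 against -1.16).

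The TALE cofactors were lower in iHep more often than higher. Of 9 such genes 5 were lower in iHep than in MF by at least 2-fold, 1 was higher and the median difference was -1.02, where 23.6% of all genes were lower and 19.9% higher. Pknox2 read 0.64 in MF, -2.46 in iHep and -5.33 in PH, 8.55-fold lower in iHep. Pbx4 and Pbx3 were 5.21-fold and 2.43-fold lower, and Pknox1 was 2.77-fold higher. Meis1, a Hox partner in progenitor cells, read 0.49, 0.30 and -0.11 and lay within 2-fold. In PH over MF 4 of the 9 were lower and 1 higher, against 25.4% and 30.9% of all genes.

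Of 23 Polycomb genes, 11 were higher in iHep than in MF, 2 were lower and the other 10 differed by less than 2-fold, where 19.9% of all genes were higher and 23.6% lower. The median Polycomb difference was 0.77. Cbx7, a reader of the silencing histone mark, read -2.57 in MF, 1.63 in iHep and 0.65 in PH, 18.4-fold higher in iHep. Phf19, Ezh2, the enzyme that writes that mark, and Mtf2 were 6.06-fold, 5.83-fold and 4.42-fold higher. Jarid2 was 3.04-fold lower and Scmh1 2.59-fold lower. In PH over MF 1 of the 23 was higher and 5 were lower, against 30.9% and 25.4% of all genes.

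Of 14 trithorax and other opposing genes, 5 were higher in iHep than in MF and none lower, against 19.9% and 23.6% of all genes, with a median of 0.82. Gmnn, counted on this list and an inhibitor of replication licensing, was 6.19-fold higher, Dot1l 4.73-fold, Psip1 3.83-fold and Wdr5 2.96-fold. Whether each listed gene counters Polycomb in these cells was not tested. Genes of this list and of the Polycomb list were thus higher on the same array.

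Among signals and regulators upstream of the clusters, retinoic acid genes were among those with the largest differences. Aldh1a2, which makes retinoic acid, read -0.02 in MF, -6.21 in iHep and -1.05 in PH, 72.8-fold lower in iHep. Cyp26a1, which degrades it, was not above background in MF (-7.34) and read -3.22 in iHep and 1.08 in PH, at least 8.46-fold higher in iHep. Cyp26b1, which also degrades it, went the other way, with -0.29 in MF, -1.80 in iHep and 3.17 in PH, 2.86-fold lower in iHep. The receptor genes Rara, Rarb and Rarg lay within 2-fold between iHep and MF. Gdf11, a signal for posterior Hox use, was 15.0-fold lower. Of the 18 genes of this list 13 were above background on MF or iHep, of which 3 were higher, 6 were lower and Pdx1 had no fold, or 0 higher and 6 lower with normexp, against 19.9% and 23.6% of all genes in the main setting. Cdx2, Cdx4, Evx1 and Evx2 were above background on no array.

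Genes that flank the clusters were higher or lower about as often as all genes. Of 20 flanking genes, 3 were higher and 5 lower in iHep than in MF, where 19.9% and 23.6% of all genes were, with a median of -0.11. Ttll6 and Cbx1, from beside HoxB, were at least 12.7-fold and 3.67-fold higher, and Cbx5, from beside HoxC, was 2.95-fold higher. Beside HoxD, Mtx2 read 2.25 in MF and 3.01 in iHep, within 2-fold, and Lnpk was 2.32-fold lower. Jazf1, from beside HoxA, was 4.15-fold lower, and Skap1, from beside HoxB, 3.65-fold lower.

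Of 19 listed noncoding genes of the clusters, 2 were read by probes. Gm53, a noncoding gene of HoxB with a probe on the array, was not on that list and is not described here. Hoxd3os1, antisense to Hoxd3, was not above background in MF (-7.17) or PH (-8.84) and read -3.46 in iHep, at least 7.18-fold higher in iHep than in MF, the same direction as Hoxd3; no probe sequence was used here, so the strand each probe reads was not checked. Hoxa11os, antisense to Hoxa11, read -2.78 in MF, -4.89 in iHep and -2.10 in PH, 4.32-fold lower in iHep. Unlike Hoxa11 it was above background on all 3 arrays. No miRNA of the clusters matched a probe name here.

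Other transcription factors that mark body position in mesenchyme were lower in iHep more often than higher, 18 against 6 of 38 compared (23.6% and 19.9% over all genes), with a median of -0.94, but 5 against 4 when only probes above background on all 3 arrays were kept. Wt1, a gene of mesothelium and spleen stroma, was 153-fold lower, with 0.15 in MF, -7.11 in iHep and -0.84 in PH. Prrx1 and Tbx15 were 27.4-fold and 9.13-fold lower, and Twist1 and Prrx2 were lost below background, at least 1035-fold and at least 1060-fold lower. Nkx2-5, which acts in heart and spleen, was 7.19-fold higher. Tlx1, the gene known to specify the spleen, was not above background in MF (-6.32) or iHep (-7.92) and read -5.50 in PH. In PH over MF 10 of these genes were higher and 21 lower, against 30.9% and 25.4% of all genes, and the median of -1.45 became 0.49 when only probes above background on all 3 arrays were kept.

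**Figure D5:**
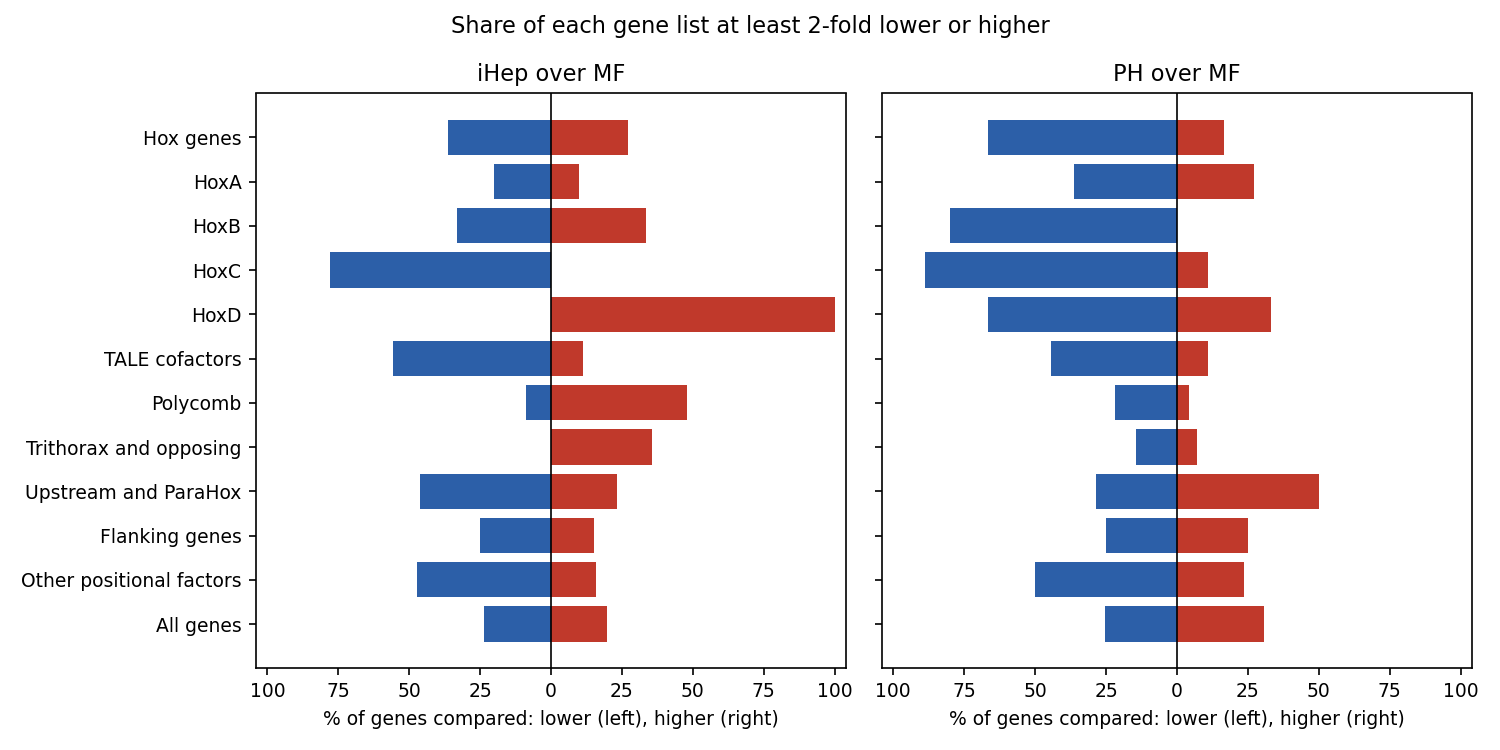
Share of genes at least 2-fold lower (left, blue) and higher (right, red) in iHep over MF and in PH over MF, as percent of the genes compared, for the Hox genes, each cluster, the related lists and all genes, 1 array per group. In iHep over MF, HoxC (7 of 9 lower) and HoxD (5 of 5 higher, 3 with normexp) lie furthest apart, and the Polycomb list has 11 of 23 higher.

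The labelled cell types were set against marker genes, and summed marker signal is given in units of each array's 75th percentile. All 12 fibroblast markers were above background in MF and PH and 10 in iHep, with summed signals of 739, 59.0 and 80.0. The share of all genes above background was 72.9% in MF, 79.5% in iHep and 84.5% in PH. Of 12 hepatocyte markers MF had 6 above background, iHep 9 and PH 12, with sums of 22.1, 14.7 and 706, and Apoa1, Arg1 and Pck1 were not above background in iHep. Nearly all of the MF sum and most of the iHep sum came from Apoa2, at levels of 4.45 and 3.57. In iHep over MF 2 of 9 hepatocyte markers compared were at least 2-fold higher, Hnf4a and Cyp3a11, and none was lower. Over all genes 19.9% were higher and 23.6% lower. PH also carried all 8 pancreatic acinar markers, with a sum of 418 against 0.45 in MF and 0.79 in iHep. Macrophage markers summed to 88.3 in MF, 2.11 in iHep and 96.7 in PH, with 9, 6 and 9 of 9 above background.

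Other cell types were read on these arrays as well, and their part in the Hox values was not tested. Endothelial markers summed to 1.21 in MF, 0.74 in iHep and 35.0 in PH, with 5, 4 and 8 of 8 above background. On these arrays 72.9%, 79.5% and 84.5% of all genes were above background. Lymphocyte markers summed to 0.83, 0.71 and 13.2, with 5, 4 and 8 of 8 above background, and erythroid markers to 0.22, 0.19 and 20.2, with 3, 3 and 4 of 5. These lists were highest in PH, the array with the highest reading of Hoxa9. Biliary markers summed to 13.3, 17.0 and 4.63, with 5, 5 and 6 of 6 above background.

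Tissues in which posterior Hox genes are used were checked too. Kidney and urogenital markers summed to 2.71 in MF, 4.36 in iHep and 63.2 in PH, with 8, 10 and 10 of 12 above background. These counts lay near the shares over all genes, which were 72.9%, 79.5% and 84.5%. Cdh16 and Pax8 were 48.2-fold and at least 58.3-fold higher in iHep than in MF. Wt1, Lrp2 and Emx2, from the same list, were 153-fold, 42.0-fold and 25.7-fold lower. In PH nearly all of the kidney and urogenital sum came from Pax2, at a level of 5.96. Intestinal markers summed to 0.09, 1.37 and 2.88, with 2, 4 and 4 of 7 above background. Vil1, at a level of 0.32, made up most of that sum in iHep and was at least 99.0-fold higher there than in MF. Cdx2, the defining gene, was above background on no array. Mesothelial markers summed to 6.26, 15.9 and 7.69, with 5, 3 and 5 of 5 above background. Most of the iHep sum came from Msln, at a level of 3.81, while 3 of the 5 genes were lower in iHep than in MF, Wt1, Upk3b and Lrrn4. The kidney and intestinal sums were higher in iHep than in MF, as Hoxb13 was, and their part was not tested. Of 10 kidney genes compared 4 were higher and 3 lower, and of 4 intestinal genes 2 were higher and none lower. The shares over all genes were 19.9% higher and 23.6% lower.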

How the data were processed

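RNA of 3 pools was hybridised to 1-colour (Cy3) Agilent arrays, 1 per group, grouped by sample title. The scanner files hold intensity values on a linear scale, which per the file headers came from Agilent Feature Extraction 11.0.1.1, background-subtracted and detrended within each array with no scaling between arrays, on a design annotated on mm9. The submitters' processing notes name version 9.1. The labels describe globin RNA depletion for all groups. The authors' deposited value table holds log2 values that correlated with the scanner levels at 0.9974, 0.9982 and 0.9943, with column medians of 7.018, 7.012 and 7.067; its normalization is not given in the sources used here.

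Controls were dropped, as were spots the software marked as non-uniform or as population outliers (190, 230 and 383 of 43020), and none was saturated. Levels were log2 of the processed signal minus each array's 75th percentile, and repeated spots were averaged. Of 39429 probes, 27234 were named through unversioned RefSeq accessions (table of GRCm38.p6, used for names and promoters, not for array coordinates) and 12195 had no name here. A gene took the probe with the highest mean level. A bound took the dim reading or, if higher, the array's floor, which is the lowest level among its probes above background (-6.30, -7.32 and -6.89 on MF, iHep and PH). A bound that does not reach the other reading gives no fold. Counts use a 2-fold threshold. The calling code was tested on simulated data.

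The members and gene lists were chosen with earlier results of these data known. All members enter the counts and medians; 1 of them and some genes of other lists are not reported here by name. Of other lists, up to 4 members with the largest differences in the main direction and up to 2 in the other are named, plus members whose level a sentence needs. Alternatives were normexp (limma 3.58.1, R 4.3.3, offset 50) on median signals, quantile normalization, scaling to the median of commonly detected probes, the authors' values, other filters on dim probes, averaging the probes of a gene, and other thresholds (1.5-fold and 4-fold). Python 3.11.15 was used with numpy 2.4.6 and pandas 2.3.3.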

Additional observations from a re-analysis of the deposited data

How the results depend on the processing

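No paired analysis was possible because each group had 1 array, and no replicate could be left out for the same reason. Of the Hox genes beyond 2-fold, the 2-fold call was kept in every alternative processing that read the gene for 6 of 9 higher and 11 of 12 lower in iHep over MF, 2 of 6 and 24 of 24 in PH over MF, and 16 of 20 and 2 of 5 in iHep over PH. Naming probes by a gene name column was not run because the scanner files used here carry none. Signal over background limits HoxD, where 4 of 9 genes were above background on neither MF nor iHep. The cause of each change below was not tested, except that keeping only probes above background on all 3 arrays and the authors' table, with 25 Hox genes, leave fewer genes to count.

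With normexp, which moved the median of all genes by -0.93 in iHep over MF, -0.72 in PH over MF and -0.21 in iHep over PH, the HoxD median in iHep over MF turned from 1.57 to -1.16, Hoxd11 to -1.16 and Hoxd4 to -0.50. In PH over MF the number of higher Hox genes went from 6 to 2, the HoxC median from -6.02 to -3.55 and the HoxD median from -0.48 to -1.69, while Hoxa13, Hoxd11 and Hoxd13 turned to -0.38, -0.99 and -1.02. In iHep over PH the HoxC median went from 2.74 to 0.80, that of groups 4 to 8 from 2.82 to 1.25 and that of the 2 listed noncoding genes from 1.30 to -0.30. With quantile normalization the higher count in PH over MF was 3 and the lower count in iHep over PH was 3. In the authors' table, the number of Hox genes lower in iHep over MF went from 12 to 6, with a HoxD median of 0.66. There 2 were higher in PH over MF with a HoxA median of -1.96 (-0.71 in the main setting), and 2 were lower in iHep over PH with a HoxA median of 0.75 (-0.58) and a median of groups 1 to 3 of 2.14 (0.03).

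With only probes above background on all 3 arrays, 19 Hox genes remained to be read on MF and on iHep. In iHep over MF 3 were then higher and 5 lower, the HoxC median was -1.07 and that of groups 9 to 13 went from -0.61 to 0.46. In PH over MF 3 were higher and 11 lower, with medians of -2.33 in groups 4 to 8 (-3.53 before), 0.25 in groups 9 to 13 (-2.66 before) and 0.49 in the other positional factors. In iHep over PH 10 were higher and 3 lower, with medians of 1.60 in groups 4 to 8, 1.21 in groups 9 to 13 (-0.15 before) and -2.79 in the noncoding genes. Without a filter on dim probes 8 were lower in iHep over PH. At 4-fold, 3 were higher and 6 lower in iHep over MF, and 3 were higher in PH over MF.

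Scaling also moved the share of higher genes among all genes called. It was 45.7% in iHep over MF and 27.6% with normexp. In PH over MF it was 54.9%, and 38.9% with normexp, 43.2% with quantile normalization and 42.6% in the authors' table. In iHep over PH it was 39.2%, and 54.9% with quantile normalization and 56.1% in the authors' table. Quantile normalization moved the median of all genes by 0.53 in iHep over PH, 0.17 in iHep over MF and -0.15 in PH over MF, and the authors' table by 0.54, 0.18 and -0.30.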
